A study of Homo sapiens with 91 samples.

Results

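MOLT4, a human T-cell acute lymphoblastic leukemia line, was exposed for 4 h to KI-CDK9d-32, a compound that causes CDK9 to be degraded, and compared with MOLT4 cells given the DMSO vehicle for the same 4 h. The comparison took the 4 libraries labelled with this compound, line and time (replicates 1 to 4) and the 3 labelled with DMSO, line and time (replicates 1, 3 and 4), which are 7 of the 91 libraries of the series and 7 of its 35 MOLT4 libraries. MOLT4 cells treated with KI-CDK9d-32 for 2 h and 8 h (4 libraries each), with KB-0742, an inhibitor of CDK9 kinase activity, for 4 h (4 libraries), and with DMSO for 2 h and 8 h (4 libraries each) were used to show where the 4 h degrader response differed. Each culture was seeded with 1000 cells, and the concentrations of both compounds are not given in the sources used here. The labels call the replicates biological, and all groups share the one cell line, so p-values measure the spread between cultures of that line.

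CDK9 is the kinase of P-TEFb, in which it pairs with cyclin T1 or T2. P-TEFb phosphorylates RNA polymerase II and the factors that hold it near the start of a gene, and this releases the polymerase into the gene body. Much of the cell's P-TEFb is kept inactive in a particle built on 7SK RNA with HEXIM1, LARP7 and MEPCE. Messages with short half-lives, such as that of MYC and those of immediate-early genes, are known to be lost early when release is blocked, while stable messages such as those of ribosomal proteins persist.

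The 4 KI-CDK9d-32 libraries held 1704708 to 2906667 gene counts and the 3 DMSO libraries 2764089 to 2905453. All 16 T-lineage markers had counts in both groups, with summed levels of 1921 to 2736 TPM (a per-length share of the library) with KI-CDK9d-32 and 2565 to 2859 TPM with DMSO. Summed levels serve to show presence only, as they were not adjusted for the differing spike-in shares given below. Of 12 epithelial markers, 2 had counts with KI-CDK9d-32 and 4 with DMSO, at summed levels of 0.552 to 0.870 TPM and 0.209 to 1.36 TPM, and CDH1, EPCAM and KRT18 were at 0 in all 7 libraries. Of 12 myogenic markers, 4 had counts with KI-CDK9d-32 and 3 with DMSO, at 2.79 to 6.51 TPM and 0 to 1.72 TPM, with MYOD1, MYOG and DES at 0 throughout. No pair of libraries within a group agreed within counting noise, which cannot tell separate cultures from separately amplified libraries of 1 culture. Each library was counted as a replicate because the labels call the replicates biological.

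Spike-in RNA, added in equal amount to every lysate, took 23.9%, 16.0%, 39.5% and 14.1% of all counts in KI-CDK9d-32 replicates 1 to 4 and 14%, 21.2% and 12.1% in DMSO replicates 1, 3 and 4. The groups overlapped, and the replicate numbered 3 had the highest share in each. The means were 23.4 ± 11.6% with KI-CDK9d-32 (SD, n = 4) and 15.7 ± 4.79% with DMSO (SD, n = 3), a difference of 7.63 points that the two-sided exact permutation test did not separate from the spread (p = 0.286, where 35 arrangements allow no p below 0.0571). That test takes no account of the numbers, and the share with KI-CDK9d-32 over that with DMSO was 1.71, 1.87 and 1.16 for replicates 1, 3 and 4. A larger spike-in share means less cellular RNA per lysate, and fewer cells and less RNA per cell cannot be told apart in these bulk samples. Within the gene counts, cytosolic ribosomal protein mRNAs took 24.4% to 27.0% in the KI-CDK9d-32 libraries and 20.6% to 21% in the DMSO libraries. Mitochondrially encoded mRNAs took 4.20% to 5.38% with KI-CDK9d-32 and 3.24% to 3.68% with DMSO. Neither of these 2 shares overlapped between the groups, and both reached the smallest p the exact permutation test allows (0.0571).

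**Figure D1:**
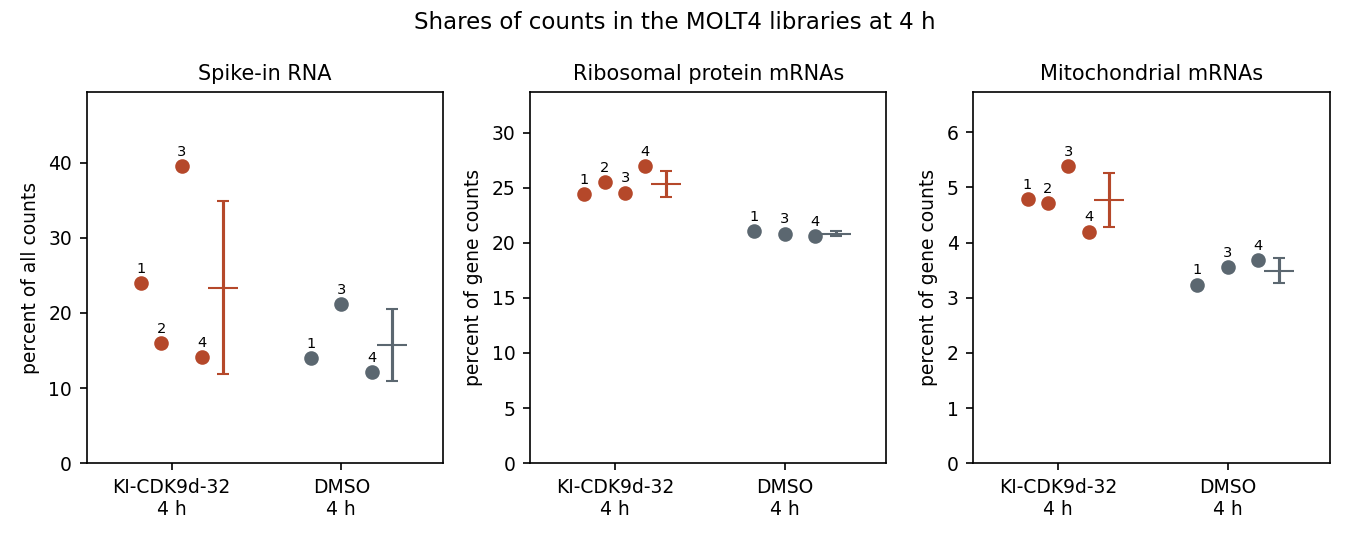
Percent of counts in each MOLT4 library at 4 h for spike-in RNA (of all counts), ribosomal protein mRNAs and mitochondrially encoded mRNAs (both of gene counts). Points are libraries with their replicate number, and bars are mean ± SD. Spike-in shares overlap between KI-CDK9d-32 and DMSO, while all 4 KI-CDK9d-32 libraries lie above all 3 DMSO libraries in the other 2 panels.

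Transcripts moved in both directions. Of 11664 genes tested, 3797 (32.6%) were called at an adjusted p of 0.05, 1591 (13.6%) as higher with KI-CDK9d-32 and 2206 (18.9%) as lower. These calls use TMM scaling, in which a gene is measured relative to the other genes of its library. Every KI-CDK9d-32 library lay above every DMSO library in 1928 genes (16.5%) and below every one in 2671 (22.9%). When libraries were scaled to the spike-ins instead, 80 genes (0.686%) were higher and 4310 (37.0%) lower, since this scaling moved the median of all genes by -1.01 on the log2 scale. The 4310 became 2353 without KI-CDK9d-32 replicate 3 and 2307 without DMSO replicate 4, and the 80 became 51 without DMSO replicate 1, 53 without DMSO replicate 3 and 48 without both libraries numbered 3. Counts of list members that rose or fell are to be read beside the 13.6% and 18.9% of all genes. Log2 fold changes below are KI-CDK9d-32 over DMSO, ± the standard error, with TMM scaling. Levels are TMM-scaled CPM, a gene's counts as a share of its scaled library.

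The genes of P-TEFb and its 7SK reservoir did not move as one. The compound's own target was measured only as mRNA: CDK9 stood at 8.15, 4.95, 8.5 and 7.92 CPM with KI-CDK9d-32 and at 10.6, 9.21 and 10.1 CPM with DMSO. The groups did not overlap, yet the log2 fold change of -0.44 ± 0.34 was not called (adjusted p = 0.337), and since the compound acts on the protein this level is no check of the labels. Of the 7 protein-coding genes on this list (7SK RNA is not on it), 1 rose and 1 fell, against 13.6% and 18.9% of all genes, with a median log2 fold change of -0.35 beside -0.11 for all genes. CCNT2, which encodes cyclin T2, rose by 1.49 ± 0.35 (adjusted p = 0.000671), to 8.53 to 11.5 CPM with KI-CDK9d-32, against 2.38 to 5.44 CPM with DMSO, a rise of 0.36 that was not called with spike-in scaling. CCNT1 (cyclin T1) had a log2 fold change of -0.10 and LARP7 one of 0.00, and neither was called.

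MEPCE, the enzyme that caps 7SK RNA, fell. It stood at 2.59, 2.67, 1.5 and 3.65 CPM in the KI-CDK9d-32 libraries and at 29.3, 23.2 and 15.8 CPM in the DMSO libraries. Every library with the compound was below every vehicle library, and the log2 fold change was -3.12 ± 0.48 (adjusted p = 1.08e-06). HEXIM1, the protein that holds P-TEFb inactive on 7SK, had 7.78, 13.7, 16.5 and 9.14 CPM with KI-CDK9d-32 and 13.5, 17.6 and 13.9 CPM with DMSO. These overlap, and the change of -0.35 ± 0.36 was not called.

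The 7SK transcript itself rose. Its gene lies at chr6:52995620-52995950 on the plus strand of GRCh38 and is 331 bases long with 1 exon. It had 88.9, 66.6, 62.0 and 76.1 CPM with KI-CDK9d-32 and 18.2, 13.7 and 20.1 CPM with DMSO, with no overlap and a log2 fold change of 2.08 ± 0.29 (adjusted p = 1.04e-06). With spike-in scaling the change was 1.06 and not called (adjusted p = 0.0883). The first 100 bases (chr6:52995620-52995719, plus strand, GENCODE release 29) are shown because they lie in the hairpin that HEXIM1 binds, with each GATC of that region, the DNA form of the GAUC that HEXIM1 recognizes, in capitals.
7SK: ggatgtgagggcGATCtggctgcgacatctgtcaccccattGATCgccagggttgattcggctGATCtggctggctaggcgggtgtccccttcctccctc
Another entry, RN7SK, shares 99.1% of these exon bases, so the division of counts between the entries is uncertain. SMART-seq2 primes cDNA from poly(A) tails, which the mature forms of 7SK, U3, RNase P and 7SL RNAs and of replication-dependent histone mRNAs normally lack, and whether their counts follow the mature RNAs was not tested.

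Among factors that work with P-TEFb, the lists differed. In the list of super elongation complex and BET family members, 4 of 13 fell and 0 rose, with a median of -0.43. BRD2, a BET protein that binds acetylated histones, had 41.8, 44.5, 54.0 and 35.9 CPM with KI-CDK9d-32 and 151, 129 and 142 CPM with DMSO, which did not overlap (log2 fold change -1.67 ± 0.17, adjusted p = 7.46e-11). EAF2, a partner of the ELL elongation factors, fell by 2.38 and MLLT3, the AF9 subunit, by 1.44 on the log2 scale. AFF4, the scaffold of the complex, had a change of -0.89 (adjusted p = 0.00681), which lost its call without DMSO replicate 1 (-0.68, adjusted p = 0.0745). In the list of NELF, DSIF, PAF1 complex and related factors, 5 of 18 fell and 3 rose (18.9% and 13.6% of all genes), and with 11 changes above 0 and 7 below, the median of 0.05 was above the -0.11 of all genes. Among those that fell, LEO1 (-1.77), PAF1 (-1.20) and CTR9 (-1.0) are subunits of the PAF1 complex, which travels with elongating polymerase, and NELFA (-1.10) is a subunit of the complex that pauses it. CDK7, the kinase of TFIIH, fell by 1.5 on the log2 scale (adjusted p = 0.000114).

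The Mediator complex, which links activators to RNA polymerase II, had 12 of 29 members lower and 1 higher, and a median of -0.54. MED8 had 2.96, 4.57, 4.00 and 3.05 CPM with KI-CDK9d-32 and 21.9, 34.9 and 25 CPM with DMSO (log2 fold change -2.88 ± 0.29, adjusted p = 4.48e-11). MED18 (-2.63), MED21 (-2.21) and MED17 (-2.11) also fell, and 41.9% of the exon bases of MED17 lie in another annotated gene. MED8, MED17 and MED18 belong to the head module and MED21 to the middle module. The member that was higher, MED13L of the kinase module, rose by 0.81, and stood at -0.14 with spike-in scaling. Among TFIID and the general transcription factors 5 of 30 fell and 1 rose, a share lower that is near the 18.9% of all genes, and 3 of the 5 kept the call whichever library was left out. GTF2B, the factor TFIIB that bridges promoter and polymerase, had 7.04, 4.19, 11 and 11 CPM with KI-CDK9d-32 and 51.0, 61.4 and 39.2 CPM with DMSO (log2 fold change -2.66 ± 0.22, adjusted p = 2.28e-13). TAF5, a TFIID subunit, had 1 count in all KI-CDK9d-32 libraries and 30 in all DMSO libraries, a scaled ratio of 0.0411 (exact 95% interval 0.00101 to 0.247), where such intervals cover counting error only. RNA polymerase II subunits split, with 6 of 12 higher and 3 lower. POLR2D fell by 0.81 ± 0.13. POLR2A, the largest subunit, had a change of -0.40 (adjusted p = 0.0450), which was not called without KI-CDK9d-32 replicate 3 (adjusted p = 0.0753) or 4 (0.163) or DMSO replicate 3 (0.163) or 4 (0.138), with other size factors (0.0534), with DESeq2 (0.0506), or without the filter on low counts (0.0938).

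MYC mRNA fell in every culture. MYC, the transcription factor gene, had 20.7, 32.7, 21.5 and 14 CPM with KI-CDK9d-32 and 183, 128 and 156 CPM with DMSO. The highest library with the compound was far under the lowest with vehicle, and the log2 fold change was -2.77 ± 0.17 (adjusted p = 5.37e-17). It was the member with the largest change in a list of MYC's partners and rivals for MAX, in which 5 of 10 tested fell and 0 rose with a median of -0.74. MAX, the shared dimer partner, had 61.5 to 93.3 CPM with KI-CDK9d-32 and 117 to 119 CPM with DMSO (-0.63 ± 0.13), and MGA, a MAX partner that represses, fell by 1.22.

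Known MYC target genes moved both ways. Of 63 tested, 24 fell and 13 rose, with a median of -0.31. NOP16, a nucleolar protein of large-subunit assembly, had 35.9, 30.8, 21.5 and 43.9 CPM with KI-CDK9d-32 and 146, 162 and 166 CPM with DMSO, with no overlap (log2 fold change -2.26 ± 0.16, adjusted p = 8.60e-16). GRWD1, a histone-binding protein also linked to ribosome assembly, fell by 2.10 and POLR1C, a subunit of RNA polymerases I and III, by 1.99 on the log2 scale. EIF4E, the cap-binding translation factor, fell by 0.87 ± 0.15 (adjusted p = 1.34e-05). NME2, a nucleoside diphosphate kinase, was the target with the largest rise, at 1206 to 1262 CPM with KI-CDK9d-32 and 702 to 745 CPM with DMSO (0.78 ± 0.08), and stood at -0.20 with spike-in scaling. Of its exon bases 40.4% are shared with a readthrough gene. The MYC-MAX binding word CACGTG lay in the 250 bases before the start of 11 of 56 targets with a promoter in the table (19.6%), of 3 of the 23 called lower (13%), and of 9.34% of the 8548 tested genes with a promoter. The word was searched as CACGTG, which reads alike on both strands. EIF4E is shown as a target that fell and holds it (chr4:98929171-98929230, minus strand, RefSeq GRCh38.p14), with the word in capitals.
EIF4E: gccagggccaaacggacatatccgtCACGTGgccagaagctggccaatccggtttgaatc

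**Figure D2:**
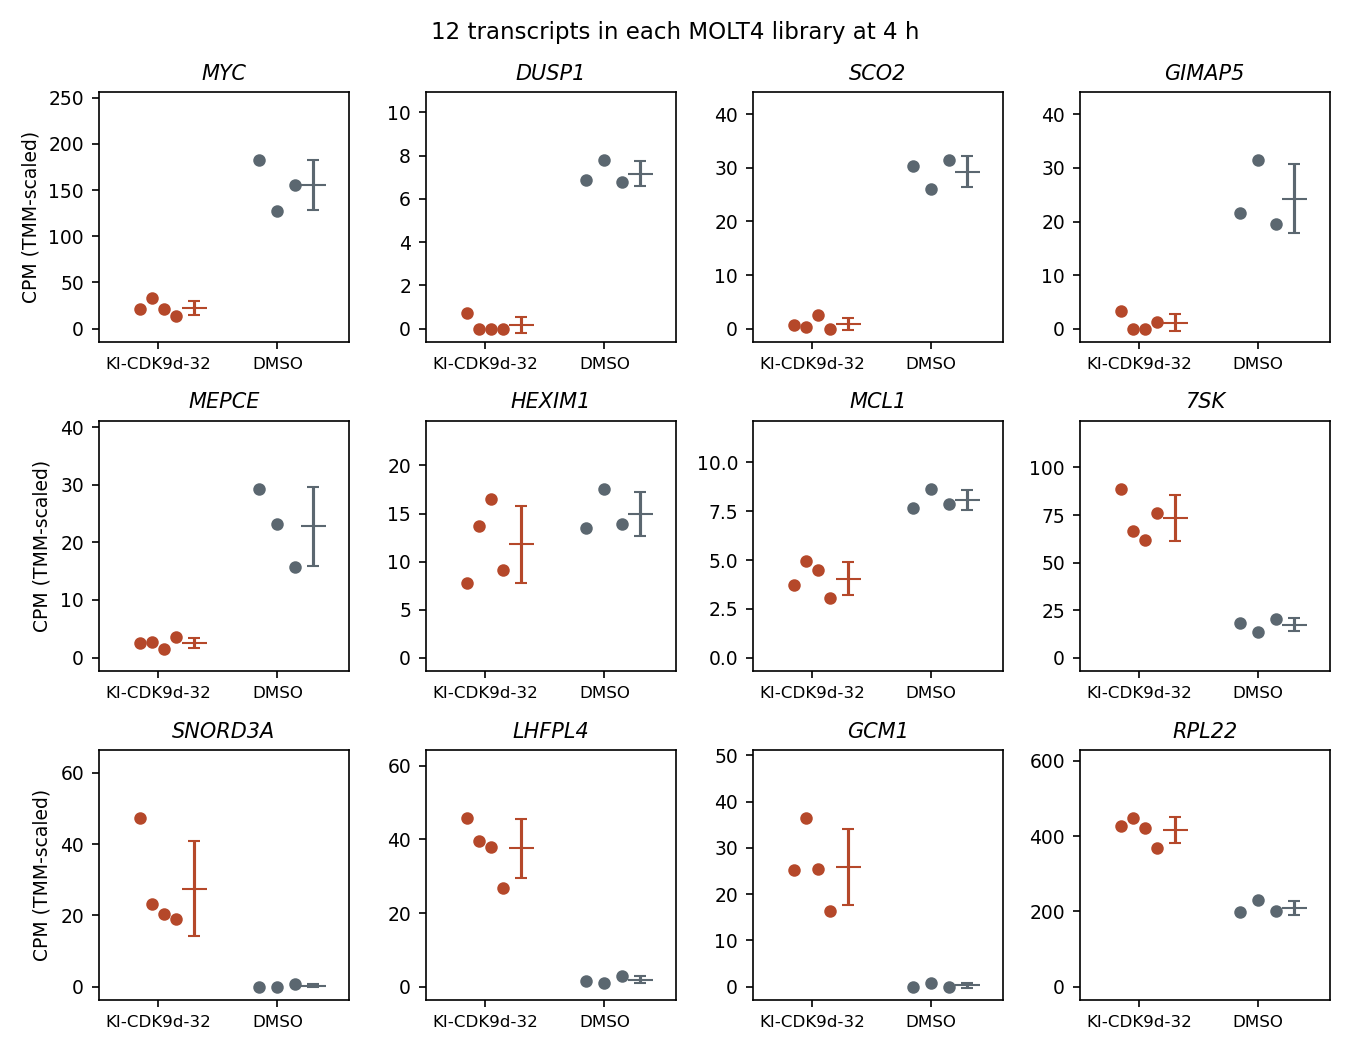
TMM-scaled CPM of 12 transcripts in each MOLT4 library at 4 h, with points for libraries and bars for mean ± SD, KI-CDK9d-32 left and DMSO right. MYC, DUSP1, SCO2, GIMAP5, MEPCE and MCL1 lie lower with KI-CDK9d-32, 7SK, SNORD3A, LHFPL4, GCM1 and RPL22 higher, and HEXIM1 overlaps. With spike-in scaling RPL22 has a log2 fold change of 0.02.

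Immediate-early genes, which cells switch on within minutes of a signal and whose messages are short-lived, were among the lists with the lowest median. Of the 53 on the list, 27 passed the filter on low counts, 15 of these fell and 1 rose, and their median was -1.64 beside -0.11 for all genes. ID3, an inhibitor of helix-loop-helix factors, had 0.370, 5.33, 1.00 and 1.22 CPM with KI-CDK9d-32 and 18.8, 31.3 and 32.1 CPM with DMSO (log2 fold change -3.68 ± 0.39, adjusted p = 1.20e-10). NFKBIA, the inhibitor of NF-kB, had 13, 11, 19 and 7.92 CPM with KI-CDK9d-32 and 47.8, 42.7 and 35.6 CPM with DMSO (-1.71 ± 0.25, adjusted p = 2.06e-07). ID1 fell by 2.20, a call lost without both libraries numbered 3 (adjusted p = 0.0916), and JUNB, an AP-1 subunit, fell by 2.04. None of these 4 overlapped between the groups.

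Several members of this list were almost absent from the treated cells. DUSP1, a phosphatase that switches off MAP kinases, had 0.741 CPM in KI-CDK9d-32 replicate 1 and 0 in the other 3, against 6.87, 7.82 and 6.80 CPM with DMSO. That is 2 counts with KI-CDK9d-32 and 79 with DMSO, a scaled ratio of 0.0312 (exact 95% interval 0.00371 to 0.116, adjusted p = 2.27e-05). RGS16, a regulator of G-protein signaling, had 1 count with KI-CDK9d-32 and 55 with DMSO (ratio 0.0224, interval 0.000557 to 0.130). NR4A1, an orphan nuclear receptor, had 2 counts with KI-CDK9d-32 and 34 with DMSO (ratio 0.0724, interval 0.00843 to 0.283), a call lost without DMSO replicate 1 (adjusted p = 0.102). ID2 went the other way, with 6.67, 11, 2.00 and 4.26 CPM with KI-CDK9d-32 and 2.38, 0.838 and 0.816 CPM with DMSO. These overlap, and its change of 2.16 ± 0.73 lost its call without KI-CDK9d-32 replicate 2 (adjusted p = 0.107) or DMSO replicate 3 (0.0866) or 4 (0.0886). FOS had 0 to 1.52 CPM with KI-CDK9d-32 and 0 to 0.816 CPM with DMSO, and FOSB 0 to 0.50 CPM with KI-CDK9d-32 and 0 with DMSO, too few counts for a fold change.

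The TATA word TATAAA lay on either strand in the 250 bases before the start of 7 of 23 immediate-early genes with a promoter in the table (30.4%) and of 4 of the 13 called lower, against 4.87% of all tested promoters. The last 60 bases before the RefSeq start (GRCh38.p14) of the 4 that fell and of FOS and FOSB are shown to set the position of the word side by side, in capitals. It begins 30 to 33 bases before the start in all 6 shown, and in NFKBIA it is read on the other strand, as TTTATA. The remaining gene of the 7 is not shown, and the position of its word is not given here.
DUSP1, chr5:172771196-172771255, minus strand: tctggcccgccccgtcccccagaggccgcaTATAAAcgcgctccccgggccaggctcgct
ID1, chr20:31605229-31605288, plus strand: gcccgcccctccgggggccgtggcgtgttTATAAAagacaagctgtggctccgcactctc
JUNB, chr19:12791426-12791485, plus strand: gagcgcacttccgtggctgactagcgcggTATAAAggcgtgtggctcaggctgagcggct
NFKBIA, chr14:35404750-35404809, minus strand: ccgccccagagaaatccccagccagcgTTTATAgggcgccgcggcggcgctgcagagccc
FOS, chr14:75278768-75278827, plus strand: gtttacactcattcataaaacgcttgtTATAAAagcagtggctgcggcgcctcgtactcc
FOSB, chr19:45467936-45467995, plus strand: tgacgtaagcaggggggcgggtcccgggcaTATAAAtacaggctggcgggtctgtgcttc

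Part of the stress-response genes fell. The integrated stress response, in which the factor ATF4 raises genes of amino acid supply and protein folding, had 9 of 27 tested members lower and 3 higher, with a median of -0.27. DDIT4, an inhibitor of mTOR signaling, had 7.41, 3.05, 5.00 and 1.83 CPM with KI-CDK9d-32 and 45.4, 35.7 and 40.2 CPM with DMSO (log2 fold change -3.15 ± 0.30, adjusted p = 9.98e-12). An antisense gene covers 48.5% of its exon bases, and the protocol is not stated to keep strand. HERPUD1, a factor of protein degradation at the endoplasmic reticulum, had 10.4, 10.3, 8.5 and 10.4 CPM with KI-CDK9d-32 and 43.3, 60.9 and 69.3 CPM with DMSO (-2.54 ± 0.25, adjusted p = 1.43e-11). PPP1R15A, which restores translation after stress, fell by 3.38 and DDIT3, the factor CHOP, by 2.82. TRIB3, a pseudokinase induced by ATF4, had 3 counts with KI-CDK9d-32 and 78 with DMSO (ratio 0.0474, interval 0.00956 to 0.144). SESN2, which senses leucine upstream of mTOR, had no count in the 4 KI-CDK9d-32 libraries and 3.70, 10.9 and 4.08 CPM with DMSO, at least 18.4-fold lower if the empty group is set to 3 counts in all.

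The composite site TGATGCAA of ATF4 and CEBP factors lay on either strand in 3 of 24 promoters of this list (12.5%) and in 0.409% of all tested promoters. HERPUD1 is shown as the member called lower that holds it, 176 bases before the start and on the other strand (TTGCATCA, in capitals; chr16:56931941-56932000, plus strand, RefSeq GRCh38.p14).
HERPUD1: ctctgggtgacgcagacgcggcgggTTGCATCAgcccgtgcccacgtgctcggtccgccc

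Pro-apoptotic genes fell more often than they rose, while the anti-apoptotic genes did not move as one. Of 6 anti-apoptotic genes tested, 1 fell, 1 rose and 4 were not called, and their median was -0.15. MCL1, a short-lived survival protein of the BCL2 family and the one that fell, had 3.70, 4.95, 4.50 and 3.05 CPM with KI-CDK9d-32 and 7.66, 8.66 and 7.89 CPM with DMSO. The groups did not overlap, and the log2 fold change was -0.97 ± 0.35 (adjusted p = 0.0272). The call was lost without KI-CDK9d-32 replicate 1 (adjusted p = 0.0660) or 4 (0.0686) or DMSO replicate 3 (0.0756) or 4 (0.0535), without the filter on low counts (0.211) and in a fit of the 2 groups alone (0.0722). Of 16 pro-apoptotic genes tested, 6 fell and 0 rose, with a median of -0.83. BAK1, a pore former of the mitochondrial outer membrane, had 20.5 to 35.4 CPM with KI-CDK9d-32 and 70.8 to 81.8 CPM with DMSO (-1.52 ± 0.18). BCL2L11, the activator BIM, fell by 1.55 and DIABLO, an antagonist of caspase inhibitors, by 1.5, though 95.9% of the exon bases of DIABLO lie in other annotated genes. BIRC5 (survivin) rose by 0.43, at 437 to 460 CPM with KI-CDK9d-32 and 291 to 368 CPM with DMSO, and stood at -0.51 with spike-in scaling.

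The 15 genes with the largest falls were taken from called genes averaging log2 CPM 3 or more whose groups did not overlap. MFSD2A, a lipid transporter, had 0.370 CPM in KI-CDK9d-32 replicate 1 and 0 in the others, against 9.24, 10.3 and 11.4 CPM with DMSO, a scaled ratio of 0.0108 (exact 95% interval 0.000271 to 0.0614). SCO2, which delivers copper to cytochrome c oxidase, had 0.741, 0.381, 2.5 and 0 CPM with KI-CDK9d-32 and 30.4, 26.0 and 31.5 CPM with DMSO (log2 fold change -4.96 ± 0.42, adjusted p = 2.72e-13). A second SCO2 entry and TYMP share all of its exon bases, so its counts are uncertain. PET117, another cytochrome c oxidase assembly factor, had 2.22, 1.14, 0 and 0 CPM with KI-CDK9d-32 and 22.4, 19.8 and 20.9 CPM with DMSO (-4.35 ± 0.46, adjusted p = 1.79e-10), with 52.6% of its exon bases in KAT14. COA7, which acts in the same assembly, fell by 3.72. SDHAF1, an assembly factor of succinate dehydrogenase that is not among the 15, fell by 3.22. No overlap was a condition for the 15, and in SDHAF1, too, no KI-CDK9d-32 library reached the lowest DMSO library.

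Across the list of respiratory chain assembly factors the picture was split, with 13 of 50 lower and 10 higher (18.9% and 13.6% of all genes). Their median was 0.07. Mitochondrial ribosomal proteins had 32 of 77 lower and 9 higher, with a median of -0.28. MRPL17 had 14.1, 17.5, 16.5 and 25.6 CPM with KI-CDK9d-32 and 83.7, 84.0 and 88.6 CPM with DMSO (-2.24 ± 0.20, adjusted p = 7.98e-13), and MRPL46 fell by 2.20, with 45.3% of its exon bases in another gene.

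The other genes of this group had varied roles, and by the rule that chose them their groups did not overlap. RPUSD2, a pseudouridine synthase, had 0.741 to 5.33 CPM with KI-CDK9d-32 and 30.2 to 36.2 CPM with DMSO (-3.8 ± 0.38). IFRD1, an interferon-related developmental regulator, had 0.50 to 6.47 CPM with KI-CDK9d-32 and 45.1 to 51.1 CPM with DMSO (-3.77 ± 0.37). The circadian repressor NR1D1 fell by 3.88, the dolichol kinase DOLK by 3.88, the adaptor DOK1 by 3.94 and the ubiquitin ligase TRIM32 by 3.8. HDHD3, a hydrolase-fold protein, fell by 3.99, RP9, a splicing-linked protein, by 3.84 and MTFR2, a mitochondrial fission regulator, by 3.71. ADPGK-AS1 fell by 3.75, and its reads cannot be told apart from those of its partner ADPGK where their exons overlap.

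GIMAP genes, which encode GTPases that support lymphocyte survival and sit in one cluster on chromosome 7, fell together. Of 5 tested, 4 fell and 0 rose, with a median of -2.72. GIMAP5 had 3.33, 0, 0 and 1.22 CPM with KI-CDK9d-32 and 21.7, 31.6 and 19.6 CPM with DMSO (log2 fold change -4.27 ± 0.58, adjusted p = 4.42e-07), with 76.2% of its exon bases in the readthrough gene GIMAP1-GIMAP5. GIMAP6 had 1.14 to 3.05 CPM with KI-CDK9d-32 and 14.4 to 19.5 CPM with DMSO (-3.00 ± 0.37), GIMAP7 2.44 to 5.33 CPM with KI-CDK9d-32 and 27.5 to 29.1 CPM with DMSO (-2.72 ± 0.36), and GIMAP2 1.00 to 12.8 CPM with KI-CDK9d-32 and 20.1 to 31.0 CPM with DMSO (-1.83 ± 0.39).

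Against these falls, messages for ribosomal proteins and mitochondrially encoded subunits took a larger share of each library. All 79 cytosolic ribosomal protein mRNAs were higher with TMM scaling, with a median log2 fold change of 0.75, while with spike-in scaling 0 were called and their median was -0.20. RPS19 had 3060, 3346, 2845 and 3836 CPM with KI-CDK9d-32 and 1740, 1707 and 1753 CPM with DMSO (0.92 ± 0.08, adjusted p = 1.49e-12; 0.01 with spike-in scaling). RPL22 rose by 0.99 and RPL5 by 0.52, and with spike-in scaling they stood at 0.02 and -0.40. All 13 mitochondrially encoded mRNAs were higher, with a median of 0.92, and with spike-in scaling 0 were called and the median was -0.10. MT-CO2, which encodes a cytochrome c oxidase subunit, had 11185, 11445, 12742 and 9479 CPM with KI-CDK9d-32 and 5779, 6608 and 6515 CPM with DMSO (0.83 ± 0.13, adjusted p = 7.55e-06; -0.19 with spike-in scaling). MT-ATP8 rose by 1.07, which was -0.01 with spike-in scaling.

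Nuclear genes of energy supply were higher too under TMM scaling, with medians below 0 under spike-in scaling. Respiratory chain subunits had 59 of 76 higher and 3 lower, with a median of 0.57 (-0.41 with spike-in scaling). ATP5F1D, a subunit of ATP synthase, had 173 to 315 CPM with KI-CDK9d-32 and 102 to 117 CPM with DMSO (1.05 ± 0.18). SDHA, the flavoprotein of succinate dehydrogenase, was an exception, at 50.0, 89.1, 50.5 and 41.4 CPM with KI-CDK9d-32 and 133, 109 and 117 CPM with DMSO (-1.03 ± 0.18, adjusted p = 9.57e-06). Glycolysis genes had 11 of 20 higher and 2 lower, with a median of 0.55 (-0.47 with spike-in scaling). PFKL, a phosphofructokinase, rose by 0.80 (-0.18 with spike-in scaling; not called without both libraries numbered 3, adjusted p = 0.0574), while SLC2A1, the glucose transporter GLUT1, had 0, 2.67, 1.00 and 1.22 CPM with KI-CDK9d-32 and 14.3, 13.7 and 17.1 CPM with DMSO (-3.57 ± 0.45, adjusted p = 1.03e-08). Replication-dependent histone genes had 14 of 52 higher and 0 lower, with a median of 0.63 (-0.33 and 0 called with spike-in scaling). Only 4 of the 14 rises kept their call whichever library was left out, against 980 of the 1591 rises over all genes tested. H2BC11 had 14.8, 8.00, 8.5 and 18.3 CPM with KI-CDK9d-32 and 2.11, 5.03 and 3.81 CPM with DMSO (1.74 ± 0.42). Histone gene copies are close to identical, so the counts of single copies are uncertain.

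**Figure D3:**
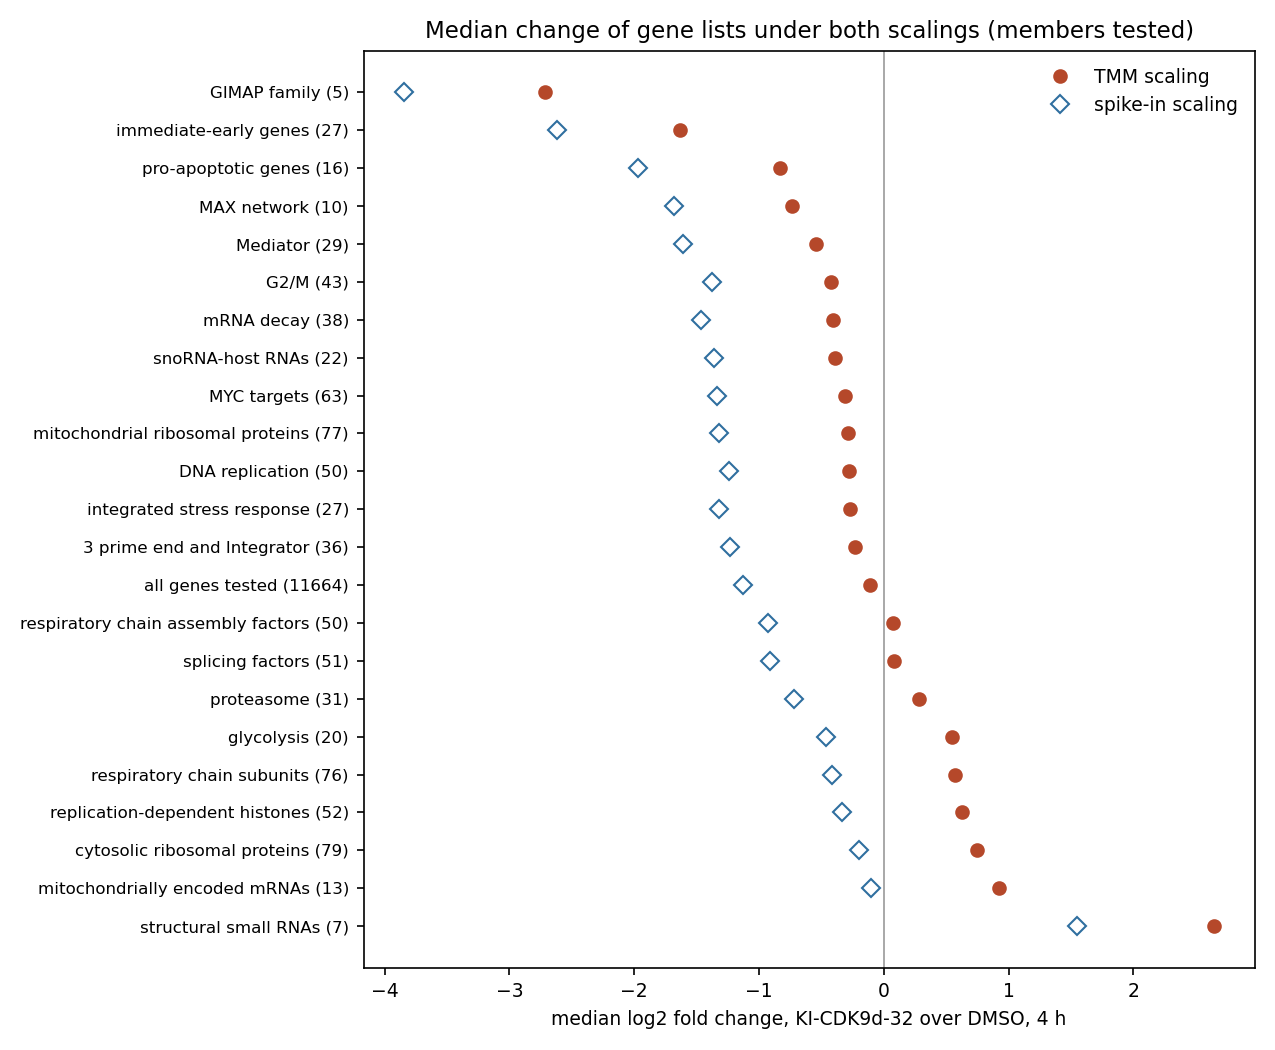
Median log2 fold change, KI-CDK9d-32 over DMSO at 4 h, of the tested members of each list (number in brackets), with TMM scaling (filled) and spike-in scaling (open). Ribosomal protein, mitochondrial mRNA, respiratory chain, histone and glycolysis medians are above 0 with TMM scaling and below 0 with spike-in scaling. The structural small RNAs are above 0 with both and immediate-early and GIMAP genes below 0 with both.

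A set of transcripts rose under either scaling, and many of them had few or no counts in the 4 h DMSO libraries. All 80 genes called higher with spike-in scaling were also called with TMM scaling. Of the 80, 57 had 3 or fewer counts over the 3 DMSO libraries, 36 had 0, and 38 were protein-coding. Low DMSO counts at 4 h did not always hold at 2 h and 8 h, as given below for RPL22P1 and SNORD3A. MGAM2 had no DMSO count at any of these times. Among the lists described here, members were called higher with spike-in scaling only in the structural small RNAs, the nuclear long noncoding RNAs and the myogenic markers. This breakdown was chosen after the values were seen. Low levels in one group and a call go together by construction here: 215 tested genes had 3 or fewer counts in these DMSO libraries, and 94 of them were called higher with TMM scaling.

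GCM1, a placental transcription factor gene at chr6:53126964-53148829 (minus strand), had 25.2, 36.5, 25.5 and 16.4 CPM with KI-CDK9d-32 and 0, 0.838 and 0 CPM with DMSO. That is 242 counts with KI-CDK9d-32 and 3 with DMSO, a scaled ratio of 99.4 (exact 95% interval 33.6 to 485). ERVW-1, the placental fusion protein syncytin-1 of an endogenous retrovirus at chr7:92468380-92477986 (minus strand), had 30.0, 19.8, 27.5 and 19.5 CPM with KI-CDK9d-32 and 0.264, 0.279 and 0.272 CPM with DMSO (ratio 90.3, interval 30.5 to 441). LHFPL4, known for its part at inhibitory synapses and located at chr3:9498361-9553802 (minus strand), had 45.9, 39.6, 38.0 and 26.8 CPM with KI-CDK9d-32 and 1.58, 1.12 and 2.99 CPM with DMSO (log2 fold change 4.28 ± 0.46, adjusted p = 4.95e-10). No overlap between the groups was a condition for naming these genes.

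MGAM2, a relative of intestinal maltase-glucoamylase, had 23.7, 10.3, 13 and 7.92 CPM with KI-CDK9d-32 and no count with DMSO, at least 53.4-fold higher if the DMSO group is set to 3 counts, the floor used here. ACTC1, cardiac actin and the one myogenic marker that was called, had 4.81, 6.85, 16.0 and 4.87 CPM with KI-CDK9d-32 and no count with DMSO, at least 29.1-fold higher. The transporter SLC6A20 had 107 counts with KI-CDK9d-32 and 1 with DMSO (ratio 132, interval 23.2 to 5253). The pseudogene RPL22P1 had 4.07, 15.6, 18 and 18.3 CPM with KI-CDK9d-32 and no count with DMSO at 4 h, at least 48.4-fold higher. DMSO libraries held 32 counts of it at 2 h and 18 at 8 h, so that bound rests on the 4 h vehicle libraries. Its sequence is close to that of RPL22, so these reads may have been split.

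Small structural RNAs rose as well. Of the 7 tested members of that list, 4 were higher (SNORD3A, SNORD3B-1, RPPH1 and RN7SL1) and 0 lower, with a median of 2.65 that stayed at 1.55 with spike-in scaling. SNORD3A, a U3 RNA that guides ribosomal RNA cleavage, had 47.4, 23.2, 20.5 and 18.9 CPM with KI-CDK9d-32 and 0, 0 and 0.816 CPM with DMSO (ratio 107, interval 36.3 to 523). Its DMSO counts were 3 at 4 h, 45 at 2 h and 16 at 8 h, so that ratio rests on a low 4 h vehicle group. SNORD3B-1 rose by 4.62 on the log2 scale. The U3 genes SNORD3B-2 and SNORD3C are not on the list. SNORD3B-2 rose by 2.42 (1.5 and not called with spike-in scaling) and SNORD3C by 3.72 (2.74 and not called with spike-in scaling), a call also lost without DMSO replicate 1 (adjusted p = 0.0640) or without both libraries numbered 3 (0.0568). The U3 copies are near-identical and their reads can be split among them. RPPH1, the RNA of RNase P, had 21.9, 20.9, 17.5 and 19.5 CPM with KI-CDK9d-32 and 1.06, 0.838 and 1.90 CPM with DMSO (3.93 ± 0.57, adjusted p = 4.59e-07), and RN7SL1, the signal recognition particle RNA, rose by 2.65 (1.55 and not called with spike-in scaling). All exon bases of RPPH1 and RN7SL1 are shared with another annotated entry. HELLPAR, a nuclear long noncoding RNA counted over 205012 bases, had 51.0 to 70.0 CPM with KI-CDK9d-32 and 8.70 to 12.6 CPM with DMSO (2.56 ± 0.27), and was also called with spike-in scaling.

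The remaining genes of the 15 with the largest rises were expressed in vehicle cells. TNFRSF13C, the BAFF receptor of lymphocytes, had 24.8, 29.3, 35 and 42.6 CPM with KI-CDK9d-32 and 7.92, 7.26 and 8.97 CPM with DMSO (2.01 ± 0.34, adjusted p = 7.17e-06). TRIM66, a chromatin-binding TRIM protein, had 26.2 to 44.1 CPM with KI-CDK9d-32 and 5.58 to 11.4 CPM with DMSO (1.97 ± 0.33). The repressor ZBTB20 rose by 2.16, FRMD5 by 1.93 and PCGF3-AS1 by 2.00, and 54.3% of the exon bases of ZBTB20 and 30.2% of those of PCGF3-AS1 lie in other genes. None of these 5 was called with spike-in scaling, where their changes were 0.82 to 1.15.

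Cell-cycle lists differed. Of 43 G2/M genes 21 fell and 1 rose, with a median of -0.42. CCNA2, the S- and G2-phase cyclin A2, had 59.6, 72.3, 77.0 and 71.9 CPM with KI-CDK9d-32 and 142, 164 and 142 CPM with DMSO (-1.09 ± 0.13, adjusted p = 3.97e-09). The mitotic kinase TTK fell by 1.92 and NEK2, another, by 1.68. DNA replication genes had 19 of 50 lower, 9 higher and 22 not called. Only 6 of the 19 falls kept their call whichever library was left out, against 1422 of the 2206 falls over all genes tested. Of the 16 genes of the G1 cyclin list 2 fell, 2 rose and 12 were not called. CCNE2, a cyclin of S-phase entry, fell by 2.01, with 47.6% of its exon bases under genes on the other strand. CCNE1 fell by 2.16, a call lost without DMSO replicate 1 (adjusted p = 0.0532).

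RNA-processing genes were mixed, and over all genes tested 18.9% fell and 13.6% rose. In the list of 3' end factors and Integrator, a complex that cuts nascent RNA and small nuclear RNAs, 11 of 36 fell and 4 rose. INTS6 fell by 3.26 and INTS5 by 2.92. CLP1, a kinase of 3' end cleavage, had 2.59, 4.19, 3.50 and 3.65 CPM with KI-CDK9d-32 and 30.4, 27.1 and 24.7 CPM with DMSO (-2.97 ± 0.34, adjusted p = 1.42e-09). Splicing factors had 13 of 51 lower and 8 higher, shares only a little above those of all genes. The splicing kinases CLK1 (-1.53) and CLK4 (-1.51) were among those that fell. mRNA decay factors had 14 of 38 lower and 1 higher, led by TOB1 (-2.74), which recruits deadenylases. Of 22 snoRNA-host RNAs, whose introns carry snoRNAs, 12 fell and 6 rose. SNHG12 had 3.65 to 8.5 CPM with KI-CDK9d-32 and 25.7 to 39.2 CPM with DMSO (-2.63 ± 0.29), SNHG20 fell by 2.26 and SNHG14 rose by 0.90 (-0.07 with spike-in scaling).

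Genes of T-cell identity did not move as one. Of 20 T-leukemia regulators tested, 3 fell and 2 rose, shares a little below the 18.9% and 13.6% of all genes. TAL1, a driver factor of this leukemia, fell by 1.63 and MYB by 1.31, with MYB at 13 to 24.4 CPM with KI-CDK9d-32 and 44.7 to 52.8 CPM with DMSO. TCF7, a T-cell commitment factor, rose by 0.63 (-0.35 with spike-in scaling). Of 38 genes of T-cell receptor signaling 9 rose and 7 fell, and the share that fell is near that of all genes. The receptor chain CD3E had 565, 543, 469 and 421 CPM with KI-CDK9d-32 and 322, 317 and 266 CPM with DMSO (0.73 ± 0.11; -0.24 with spike-in scaling), while the adhesion receptor CD2 fell by 1.94.

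Falls were more frequent among genes with few exons. Over protein-coding genes without ribosomal protein and mitochondrial genes, 29.7% of 317 single-exon genes were lower, 30.7% of 1310 with 2 to 3 exons, 23.6% of 3331 with 4 to 8, 18.1% of 2676 with 9 to 15 and 11.2% of 2181 with 16 or more. Expression differs between such classes, so the split was repeated within 4 equal bins of mean CPM. Genes with 1 to 3 exons were lower in 20.5%, 38.3%, 43.4% and 20.6% from the lowest to the highest bin, and genes with 4 or more exons in 11%, 19%, 25.8% and 15.5%. Rises became less frequent with exon number, from 14.8% and 15.4% in the first 2 classes through 15% and 12.1% to 9.4% in the last. Within the bins of mean CPM, genes with 1 to 3 exons were higher in 4.78%, 3.29%, 8.2% and 40%. Genes with 4 or more exons were higher in 4.64%, 3.43%, 7.96% and 30.8%, so rises differed by exon number mainly in the highest bin. By length of the gene, 24.6% of genes under 3 kb were lower and 27.6% higher, and the share lower was 28.9% for 3 to 10 kb, 25.7% for 10 to 30 kb, 18.1% for 30 to 100 kb and 8.55% over 100 kb. These are descriptions over genes, which are not replicates, and no test was made.

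**Figure D4:**
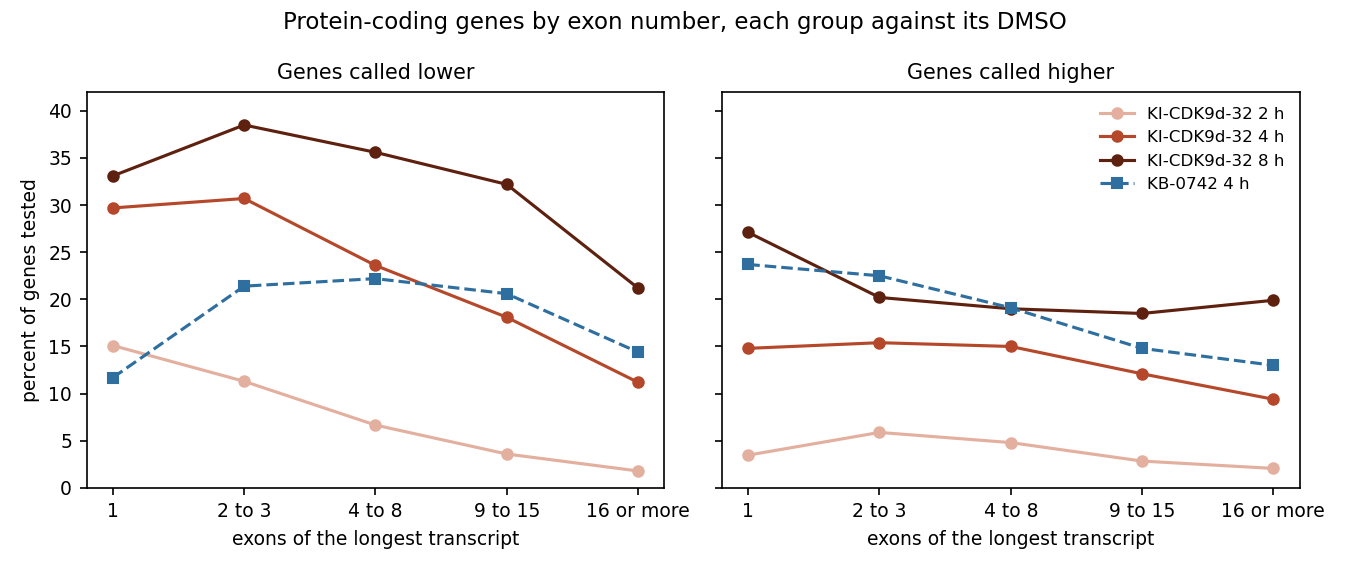
Percent of protein-coding genes (ribosomal protein and mitochondrial genes left out) called lower (left) and higher (right) by number of exons, for MOLT4 cells given KI-CDK9d-32 (2 h, 4 h and 8 h) or KB-0742 (4 h), each against DMSO of its own time. With KI-CDK9d-32 at 4 h the percent called lower is 29.7 for 1 exon and 11.2 for 16 or more.

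Set between 2 h and 8 h, the 4 h response differed from the later time in more genes than from the earlier. Within each time KI-CDK9d-32 was compared with its own DMSO libraries, which called 9.98% of genes at 2 h, 32.6% at 4 h and 49.6% at 8 h. The shares called lower were 5.41%, 18.9% and 28.7% in the same order. The test of the difference between effects called 404 genes (3.46%) between 4 h and 2 h, with 142 effects (1.22%) higher and 262 (2.25%) lower at 4 h. Between 4 h and 8 h it called 1459 (12.5%), with 858 (7.36%) higher and 601 (5.15%) lower at 4 h. With spike-in scaling, which moved the median difference of all genes by -0.62 against 2 h and by 1.79 against 8 h, 1 was higher and 11 lower than at 2 h, and 5294 were higher and 8 lower than at 8 h. Against 2 h, the total was 247 without DMSO replicate 1 of 4 h and 218 without DMSO replicate 3, with 67 and 68 effects higher, and 92 were higher without DMSO replicate 4. The 262 lower effects were 150 without DMSO replicate 3. Immediate-early genes had medians of -1.86, -1.64 and -0.24 at 2 h, 4 h and 8 h, and 10 of the 27 were lower at 4 h than at 8 h by that test with TMM scaling, against 0 lower and 1 higher with spike-in scaling. DUSP1 was one of these, with a difference of -4.03 ± 1.13 (adjusted p = 0.0110; -2.39 and not called with spike-in scaling). MYC had effects of -1.99, -2.77 and -1.91, and was lower at 4 h than at 2 h (difference -0.78 ± 0.23, adjusted p = 0.0467) and than at 8 h (-0.86 ± 0.24, adjusted p = 0.0116) with TMM scaling. With spike-in scaling these differences were -1.47 and 0.89, and neither was called.

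Other groups had their largest medians at 8 h. With TMM scaling, ribosomal protein mRNAs had medians of 0.38, 0.75 and 1.39 at 2 h, 4 h and 8 h, where 38 of the 79 had a higher effect at 4 h than at 2 h and 73 a lower one than at 8 h; with spike-in scaling 0 differed from 2 h and 15 had a higher effect at 4 h than at 8 h. Mitochondrially encoded mRNAs had medians of 0.47, 0.92 and 2.14, and all 13 had a lower effect at 4 h than at 8 h with TMM scaling, against 0 with spike-in scaling. Mitochondrial ribosomal proteins went the opposite way, with medians of -0.02, -0.28 and -1.32, and 43 of 77 had a higher effect at 4 h than at 8 h (73 with spike-in scaling). SDHA had effects of -0.34, -1.03 and -3.55, a difference of 2.53 ± 0.30 between 4 h and 8 h (adjusted p = 2.01e-08; 4.38 and called with spike-in scaling). SCO2, by contrast, had its lowest value at 4 h, with effects of -1.27, -4.96 and -2.80. By the test of the difference it differed from 2 h (-3.69 ± 0.53, adjusted p = 9.79e-06) and from 8 h (-2.17 ± 0.62, adjusted p = 0.0127). The first was also called with spike-in scaling (-4.83) and the second was not (-0.81). SCO2 was named for its fall at 4 h, which both tests use again.

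Some of the transcripts nearly silent in the 4 h vehicle cells had higher levels at 4 h than at 2 h. ERVW-1, ACTC1 and SLC6A20 were called by the test of the difference, ERVW-1 also with spike-in scaling. They were chosen for their 4 h values, which that test uses again, so these calls are no separate evidence of a later rise. ERVW-1 had 0 to 0.684 CPM at 2 h, 19.5 to 30.0 CPM at 4 h and 38.7 to 71.9 CPM at 8 h with KI-CDK9d-32, and MGAM2 had no count at 2 h and averaged 54.2 CPM at 8 h. LHFPL4 was already at 12.7 to 27.8 CPM at 2 h with KI-CDK9d-32. Of the 57 with 3 or fewer DMSO counts at 4 h, 48 had a higher mean CPM at 8 h than at 4 h. These levels are TMM-scaled, and the count was not repeated with spike-in scaling. That scaling moved the median of effect at 4 h minus effect at 8 h by 1.79 over all genes. 7SK had effects of 0.42, 2.08 and 4.51 at the 3 times, and its effect at 4 h differed from both others (adjusted p = 0.0120 from 2 h and 2.05e-05 from 8 h; neither called with spike-in scaling). RPPH1 had effects of 4.89, 3.93 and 6.04 and was called at each time.

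**Figure D5:**
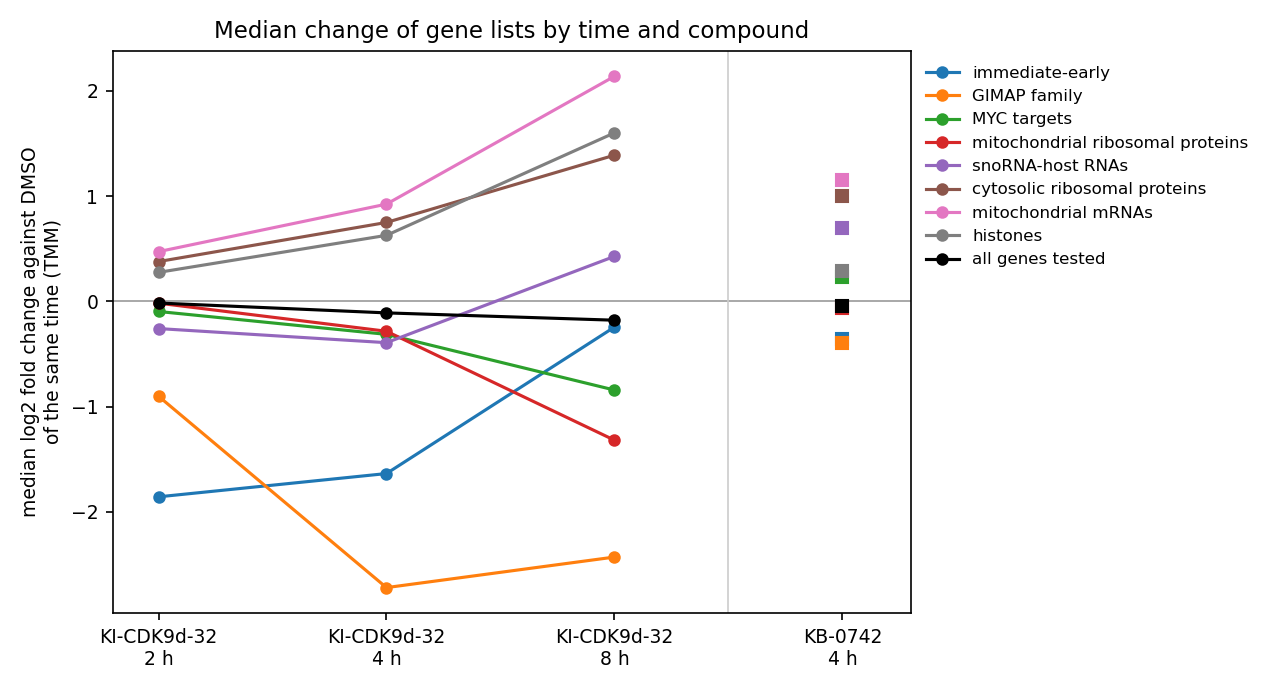
Median log2 fold change over the tested members of 8 lists and over all genes tested, TMM scaling, for KI-CDK9d-32 at 2 h, 4 h and 8 h and for KB-0742 at 4 h, each against DMSO of the same time. Immediate-early genes have medians of -1.86, -1.64 and -0.24 under the degrader and -0.36 under KB-0742, and ribosomal protein mRNAs 0.38, 0.75 and 1.39 and 1.00.

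The degrader and the kinase inhibitor KB-0742 differed widely at 4 h. A direct comparison of KI-CDK9d-32 with KB-0742 libraries called 4164 genes (35.7%), 1707 (14.6%) higher and 2457 (21.1%) lower with KI-CDK9d-32. With spike-in scaling, which moved the median of all genes by 0.31, 1639 were called, 895 higher and 744 lower. Both compounds are set against the same DMSO libraries, so their effects are given side by side only, and doses are not known to match. MYC stood at 14 to 32.7 CPM with KI-CDK9d-32, 264 to 359 CPM with KB-0742 and 128 to 183 CPM with DMSO, an effect of -2.77 with the degrader and of 1.02 with the inhibitor, and the difference was -3.78 (adjusted p = 5.08e-23). HEXIM1 was instead higher with the degrader than with the inhibitor, a difference of 2.45 (adjusted p = 2.58e-05). It stood at 7.78 to 16.5 CPM with KI-CDK9d-32, 0.407 to 3.48 CPM with KB-0742 and 13.5 to 17.6 CPM with DMSO. The KI-CDK9d-32 and DMSO libraries overlapped. CDK9 mRNA had an effect of -0.44 with the degrader and 0.37 with the inhibitor, and the difference of -0.81 was called (adjusted p = 0.0472), though not with spike-in scaling (-0.60). CCNT1 had effects of -0.10 and 1.44 (difference -1.55, adjusted p = 2.89e-06; -1.23 and not called with spike-in scaling).

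Immediate-early genes had a median of -1.64 with KI-CDK9d-32, against -0.36 with KB-0742, and 9 of 27 were lower and 1 higher with the degrader than with the inhibitor (7 and 1 with spike-in scaling). NFKBIA had effects of -1.71 and 0.02, and DDIT4 of -3.15 and 0.02, with differences of -1.73 and -3.17. MCL1 had effects of -0.97 and -0.33, a difference of -0.64 that was not called (adjusted p = 0.153). Of the snoRNA-host RNAs, 18 of 22 were lower with the degrader (4 with spike-in scaling), and their medians were -0.39 and 0.70. SCO2 had effects of -4.96 and -0.55 and PET117 of -4.35 and 1.12. Not every fall was larger with the degrader: MRPL46 had effects of -2.20 and -3.40 (difference 1.20, adjusted p = 0.00765), BAK1 of -1.52 and -2.34 (0.82, adjusted p = 0.00185; 1.30 and not called with spike-in scaling) and GIMAP2 of -1.83 and -3.19 (1.36, adjusted p = 0.0325). With TMM scaling, ribosomal protein mRNAs had medians of 0.75 with the degrader and 1.00 with the inhibitor, and 64 of 79 were lower with the degrader than with the inhibitor, against 0 with spike-in scaling.

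The transcripts nearly silent in the 4 h vehicle cells had been chosen for their rise with the degrader, so their levels with the inhibitor are given as values only. Of the 57 with 3 or fewer DMSO counts, 41 had 3 or fewer counts over the 4 KB-0742 libraries. ERVW-1, MGAM2 and ACTC1 had no count with KB-0742, and LHFPL4 had 0 to 1.30 CPM there. GCM1 was called higher with both compounds, averaging 25.9 CPM with KI-CDK9d-32, 2.34 CPM with KB-0742 and 0.279 CPM with DMSO. TNFRSF13C and TRIM66 had effects of opposite sign, at 2.01 and 1.97 with the degrader and -1.22 and -1.97 with the inhibitor, with differences of 3.24 (adjusted p = 2.92e-09) and 3.94 (adjusted p = 1.57e-11). By exon number, from 1 to 16 or more, the shares of genes called lower were 29.7%, 30.7%, 23.6%, 18.1% and 11.2% with KI-CDK9d-32 and 11.7%, 21.4%, 22.2%, 20.6% and 14.4% with KB-0742, and the difference between the compounds was not tested.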

How the data were processed

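RNA was measured in MOLT4 libraries made by SMART-seq2 and Nextera XT from 1 ng of total RNA, with 10 cycles of cDNA and 16 cycles of library amplification, per the labels' protocols. Per the submitters' processing notes, Salmon and hg38 were used; which Salmon release and gene annotation were used is not given in the sources used here. The deposited tables hold estimated counts per gene, already rounded by the authors, and log2(TPM + 1) values, which served for summed marker levels only. ERCC (92) and SIRV (7) entries set the spike-in scaling, and 47 entries of the Y pseudoautosomal regions were left out.

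Counts of all 35 MOLT4 libraries (9 groups) were fitted together with edgeR 4.0.16 in R 4.3.3: filterByExpr with a minimum count of 10 (11664 genes), TMM scaling, robust quasi-likelihood F tests and Benjamini-Hochberg adjustment over all genes tested, with calls at 0.05. The filter set aside 0.437% of gene counts. Spike-in scaling set library sizes to the summed ERCC and SIRV counts. The interaction tests and the comparison with KB-0742 came from the same fit. The alternatives were spike-in scaling, other size factors, DESeq2 1.42.0, no filter, a minimum count of 30, the 2 groups alone, a replicate block and each library left out. Leaving out both libraries numbered 3, and leaving out libraries under spike-in scaling, were chosen after seeing the data. The procedure was tested on simulated data.

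Gene lists come from general knowledge, and the lists, the rule for named genes and the comparison itself were chosen with earlier results of these data known. Named are 9 fixed genes (CDK9, CCNT1, CCNT2, HEXIM1, LARP7, MEPCE, MYC, MCL1 and POLR2A), the 15 called genes with the highest and the 15 with the lowest fold change (mean log2 CPM of at least 3, no overlap), the 10 highest with spike-in scaling under the same conditions, and up to 4 called members of a list. Named outside this rule, after their values were seen, are MED13L, MAX, POLR1C, EIF4E, NME2, JUNB, ID1, ID2, FOS, FOSB, DDIT3, HERPUD1, RPL5, MT-CO2, MGAM2, SLC6A20, SNHG14 and TCF7. Positions, exons and lengths come from GENCODE release 29, and promoter sequences from RefSeq (GRCh38.p14).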

Additional observations from a re-analysis of the deposited data

Results flagged for a closer look

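In 14 named genes 1 of the 4 KI-CDK9d-32 libraries stood apart from the other 3 by Dixon's test, which picks out about 1 group in 20 by chance. The high libraries were replicate 4 for LARP7 (23.1 CPM, against 16.5 to 17.1 CPM in the others), HDHD3 (3.65 CPM) and INTS6 (2.44 CPM), replicate 2 for ID3 (5.33 CPM), replicate 1 for SNORD3A (47.4 CPM, against 18.9 to 23.2 CPM) and replicate 3 for TAL1 (5.50 CPM). The low libraries were replicate 2 for CDK9 (4.95 CPM, against 7.92 to 8.5 CPM) and replicate 3 for HERPUD1 (8.5 CPM) and IRF1 (11.5 CPM). In the other genes 1 library had counts and the rest had 0: replicate 1 for DUSP1 (0.741 CPM) and MFSD2A (0.370 CPM), replicate 2 for NR4A1 (0.761 CPM) and replicate 3 for TAF5 and RGS16 (0.50 CPM each). These values rest on few counts.

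The KI-CDK9d-32 effect at 4 h differed from that at 2 h, by edgeR's test of the interaction with Benjamini-Hochberg adjustment, in 142 genes with a more positive effect at 4 h and 262 with a more negative one. With spike-in scaling these were 1 and 11, and the differences below are with TMM scaling, as effect at 4 h minus effect at 2 h on the log2 scale. With spike-in scaling, only SCO2, PET117, MFSD2A and ERVW-1 of the 42 genes named here were called, and NME2 (-0.10), RPL22 (-0.09) and PSMA7 (-0.10) turned sign. Genes of the transcription apparatus were EAF2 (-1.91), PAF1 (-0.80), MED8 (-1.96), MED21 (-1.66) and GTF2B (-1.52), while 7SK had 1.66. MYC itself had -0.78, its rival MGA -1.12 and MYB, a T-lineage regulator, -0.89. Among MYC targets the values were -1.85 for NOP16, -1.48 for GRWD1, -0.95 for POLR1C, -0.75 for EIF4E and 0.46 for NME2. Genes of mitochondria had -3.69 (SCO2), -3.19 (PET117), -2.45 (COA7), -2.06 (SDHAF1), -1.36 (MRPL17) and -1.55 (MRPL46). The apoptosis genes BAK1 and DIABLO had -1.06 and -0.97, the stress gene TRIB3 had -3.41 and the glucose transporter SLC2A1 had -2.16. The ribosomal protein genes RPL22 and RPS19 had 0.47 and 0.53. The genes named for the size of their fall were chosen on the 4 h values that this test uses again. Their differences were -2.63 for GIMAP6, -4.11 for MFSD2A, -2.28 for DOK1, -2.30 for RP9, -2.07 for RPUSD2, -2.38 for TRIM32 and -2.13 for MTFR2. Genes near 0 at 2 h and high at 4 h had 7.43 (ERVW-1), 7.77 (ACTC1) and 5.95 (SLC6A20), where the size depends on few counts. They, too, were chosen for their 4 h values. In the lists given last, HSF2 had -1.64, CHORDC1 -1.28, TRIAP1 -1.18, EXO1 -1.65, PSMC6 -0.83 and PSMA7 0.42. The adjusted p of these genes lay between 1.17e-07 (NOP16) and 0.0467 (MYC).

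The 4 h effect differed from the 8 h effect in 858 genes with a more positive effect at 4 h and 601 with a more negative one, which became 5294 and 8 with spike-in scaling. With that scaling 10 of the 37 genes named here were called, all with a more positive effect at 4 h (PAF1, NELFA, MAX, GRWD1, EIF4E, BAK1, DIABLO, SDHA, DOK1 and PSMC6), and 12 turned from negative to positive (MYC, NME2, DDIT4, BIRC5, RPL22, RPS19, MT-ATP8, MT-CO2, CD3E, DNAJB1, TRIAP1 and CDK6). In effect at 4 h minus effect at 8 h, with TMM scaling, 7SK had -2.43, PAF1 1.39 and NELFA 1.24. MYC had -0.86, MAX 0.75, GRWD1 1.53, EIF4E 1.16 and NME2 -0.62. The early-response and stress genes had -4.03 (DUSP1), -2.06 (ID3), -2.43 (PPP1R15A), -1.28 (DDIT4) and -2.27 (TOB1). BAK1 had 1.10, DIABLO 1.46 and BIRC5 -0.48. The mitochondrial genes SCO2, SDHA, MT-ATP8 and MT-CO2 had -2.17, 2.53, -1.54 and -1.17, and the ribosomal protein genes RPL22 and RPS19 had -0.87 and -0.71. DOK1 had 4.82, TRIM32 -2.32, ADPGK-AS1 -2.12 and SNHG12 -1.61. CCNE1, a G1/S cyclin, had -3.90, INTS6, an Integrator subunit, -2.87, and CLP1, an RNA kinase, -1.90, while the T-cell receptor subunit CD3E had -0.68. DNAJB1 had -0.69, PPM1D -2.47, TRIAP1 -1.44, IRF1 -2.0, PARS2 -2.01, CDK6 -0.77 and PSMC6 2.06. The adjusted p of these genes lay between 2.01e-08 (SDHA) and 0.0433 (DOK1).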

How the results depend on the processing

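The counts of genes called between KI-CDK9d-32 and DMSO at 4 h stayed within 1.5 times of 3797 (1591 higher, 2206 lower) under other size factors, DESeq2, both filters, the 2 groups alone and each library left out (3075 to 3465, of which 1257 to 1468 higher and 1818 to 2006 lower). Spike-in scaling gave 80 higher and 4310 lower, and with a library left out 2366 to 5399 genes, 51 to 80 higher and 2307 to 5325 lower (2433 and 2353 lower without KI-CDK9d-32 replicate 3, 53 higher without DMSO replicate 3, 48 higher without both libraries numbered 3). For the effect at 4 h against 2 h the count of 404 became 12 with spike-in scaling (1 higher, 11 lower), 671 with DESeq2 (285 higher), 221 higher with a minimum count of 30, 220 without both libraries numbered 3 (80 higher, 140 lower) and 218 to 406 with a library left out (67 to 165 higher, 150 to 241 lower). Against 8 h it became 5302 with spike-in scaling (5294 higher, 8 lower), and DESeq2 called 908 lower. Against KB-0742 at 4 h, spike-in scaling gave 1639 (895 higher, 744 lower). With spike-in scaling the sign turned for LARP7 (-0.89), MED13L (-0.14), NME2 (-0.20), BIRC5 (-0.51), RPL5 (-0.40), MT-ATP8 (-0.0085), MT-CO2 (-0.19), PFKL (-0.18), SNHG14 (-0.066), CD3E (-0.24), TCF7 (-0.35) and PSMA7 (-0.20). With a library left out, the values of LARP7 and CCNT1, neither called, lay between -0.17 and 0.12 and between -0.25 and 0.17. Of 143 genes named, 137 were called, and 127 of these in all 7 fits that left out a library. In TMM-scaled levels the replicate numbers did not pair the samples (correlations of same-numbered deviations 0.030, -0.0003 and 0.038). With that scaling a replicate block in edgeR gave 1651 higher and 2238 lower, and 216 higher against 2 h. It gave POLR2A an adjusted p of 0.0502, its only lost call among the genes named. No block was fitted with spike-in scaling, where the replicate numbered 3 had the highest spike-in share in both groups. The cause of these shifts was not tested. Depth limits genes at a few CPM, as 1 CPM is a few counts here, doses are not given in the sources used here, and entries that share exon bases divide their counts uncertainly.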

Other observations

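Further lists differed in how often their genes fell. In the heat shock list, whose members fold proteins or control the genes that do, 10 of 23 fell and 3 rose (18.9% and 13.6% of all genes), with a median log2 fold change of -0.41 beside -0.11 for all genes. Of these calls, 6 of the 10 falls and 0 of the 3 rises kept their call whichever library was left out. DNAJB1, the co-chaperone HSP40, had 58.1, 49.5, 34.0 and 32.3 CPM in the KI-CDK9d-32 libraries and 179, 182 and 162 CPM in the DMSO libraries, with no overlap (-1.98 ± 0.16, adjusted p = 9.02e-14 with edgeR). HSF2, a heat shock transcription factor, had 7.04, 10.3, 4.00 and 6.09 CPM with KI-CDK9d-32 and 21.1, 20.7 and 20.9 CPM with DMSO (-1.57 ± 0.27). CHORDC1, an HSP90 partner, fell by 1.37. DNAJB4, another HSP40 protein, had 2 counts in all KI-CDK9d-32 libraries and 22 in all DMSO libraries, a scaled ratio of 0.112 (exact 95% interval 0.0128 to 0.455), and its call was lost without KI-CDK9d-32 replicate 2 (adjusted p = 0.0595), without the filter on low counts (0.0843) and in a fit of the 2 groups alone (0.0521).

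Among 23 targets of p53, 7 fell and 3 rose, with a median of -0.63. PPM1D, a phosphatase that switches the p53 response off, had 3.70, 6.47, 2.5 and 6.09 CPM with KI-CDK9d-32 and 19.5, 23.5 and 19 CPM with DMSO, and TRIAP1, a p53-regulated inhibitor of apoptosis, had 10.0, 17.1, 14.5 and 10.4 CPM with KI-CDK9d-32 and 35.1, 38.3 and 40.0 CPM with DMSO. Neither gene overlapped between the groups, and the log2 fold changes were -2.13 ± 0.33 for PPM1D and -1.52 ± 0.21 for TRIAP1. Of 34 DNA repair genes 6 fell and 1 rose, a share lower that is near the 18.9% of all genes. EXO1, an exonuclease of mismatch and break repair, had 4.81, 3.81, 2.5 and 3.65 CPM with KI-CDK9d-32 and 17.7, 20.7 and 25.3 CPM with DMSO (-2.48 ± 0.30, adjusted p = 4.41e-09), and FANCF, a Fanconi anemia protein, fell by 1.82. Of 41 interferon-stimulated genes 4 fell and 3 rose, shares below those of all genes. IRF1, a transcription factor induced by interferon, had 15.9, 16.0, 11.5 and 15.2 CPM with KI-CDK9d-32 and 71.8, 79.6 and 56.6 CPM with DMSO (-2.23 ± 0.20), and 15.3% of its exon bases lie in another annotated gene. IFIT5, an antiviral RNA-binding protein, fell by 2.10. OAS2, a sensor of double-stranded RNA, had a change of -2.03 (adjusted p = 0.0158) that lost its call without KI-CDK9d-32 replicate 3 (adjusted p = 0.0589) or DMSO replicate 1 (0.0594).

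Of 37 tRNA synthetases 9 fell and 4 rose, shares near the 18.9% and 13.6% of all genes. YARS2, the mitochondrial tyrosine enzyme, had 8.89, 5.71, 5.00 and 3.65 CPM with KI-CDK9d-32 and 18.2, 17 and 30.5 CPM with DMSO (-1.85 ± 0.30, adjusted p = 1.92e-06). The mitochondrial enzymes PARS2, MARS2 and HARS2 fell by 1.78, 1.39 and 1.12. In the list of the CRL4 ligase with cereblon and other ubiquitin ligases, 2 of 21 fell and 3 rose, a share lower that is below that of all genes. KEAP1, an adaptor that marks the antioxidant factor NRF2 for degradation, had 18.1, 16.4, 24.0 and 31.1 CPM with KI-CDK9d-32 and 74.0, 81.5 and 68.0 CPM with DMSO (-1.77 ± 0.26, adjusted p = 1.56e-06). CRBN, which encodes cereblon, had 9.26, 6.85, 10.0 and 7.92 CPM with KI-CDK9d-32 and 15.3, 13.4 and 20.4 CPM with DMSO (-0.94 ± 0.29, adjusted p = 0.0108), a call lost without DMSO replicate 4 (adjusted p = 0.0844) and without the filter on low counts (0.0537). CDK6, a G1 kinase, had 1516, 1330, 1132 and 1203 CPM with KI-CDK9d-32 and 707, 489 and 548 CPM with DMSO, a rise of 1.16 ± 0.19 that was 0.16 and not called with spike-in scaling. Proteasome genes were higher more often than lower with TMM scaling, with 12 of 31 up, 3 down and a median of 0.28. With spike-in scaling the median was -0.72, with 0 higher and 7 lower. Of the 12 rises 6 kept their call whichever library was left out, and of the 3 falls 2. Of all genes in the highest of 4 equal bins of mean CPM, 35.3% were higher, against 4.8% to 8.95% in the others. The proteasome list was not split by level, so whether its rises exceed those of equally expressed genes was not tested. PSMA7, a core subunit, rose by 0.73 and stood at -0.20 with spike-in scaling, while PSMC6, a subunit of the cap, had 35.9, 40.4, 40.0 and 28.0 CPM with KI-CDK9d-32 and 70.3, 87.1 and 69.9 CPM with DMSO (-1.06 ± 0.16).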
